A study of Mus musculus with 4 samples.

Results

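The genes described here are 33 genes of cholesterol and fatty acid synthesis, taken by symbol from a table of 25509 mouse genes: 17 enzymes of the sterol pathway, 4 regulators of the sterol response, 3 genes of sterol transport and 9 genes of fatty acid synthesis. All 33 were found, and all 33 were abundant enough to be tested, among 12135 tested genes. RNA was sequenced from CD4+ T cells of the genotype labelled Batf3-/- (2 libraries) and from wild-type cells (WT, 2 libraries). Both groups began as naive splenic cells sorted as CD4+, CD25-, high for CD62L and low for CD44, and both received anti-CD3, anti-CD28, IL-4, TGFb and the TNF-family cytokine TL1A over 72 h, the condition labelled Th9+TLA1. The labels name neither the strain, the age nor the exons that the Batf3 allele lacks, and they do not say whether replicates came from separate mice or cultures. The p-values therefore measure the spread between these libraries, which may be technical. The series' title names BATF3, a basic leucine zipper transcription factor, as a regulator of TH9 differentiation, and the comparison asks here which lipid synthesis transcripts differed when it was absent.

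Proliferating T cells need sterols and fatty acids for new membranes. The genes for both are largely driven by SREBP transcription factors, encoded by Srebf1 and Srebf2, which are held in the endoplasmic reticulum by INSIG proteins while sterol is plentiful and are escorted by SCAP to the Golgi for activation when it is scarce. When oxysterols accumulate, LXR receptors instead raise the efflux transporters encoded by Abca1 and Abcg1. SREBPs bind sterol regulatory elements and commonly act together with NF-Y, which binds CCAAT boxes.

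The total estimated count per library ranged from 15624874 to 31098059. Batf3 had 17 and 8 counts in the Batf3-/- libraries, against 1439 and 1661 counts in the WT libraries, so each library carried the Batf3 level its label implies. The T cell markers were abundant: the summed level of Cd3d, Cd3e, Cd3g, Cd4 and Cd28 was 1178 and 1175 CPM (counts scaled to a common library size by TMM factors) in Batf3-/- replicates 1 and 2, and 1308 and 1091 CPM in WT replicates 1 and 2. Dendritic cell markers summed to 2.28 and 1.73 CPM in the Batf3-/- libraries, against 2.15 and 2.35 CPM in the WT libraries. Of 6 listed myeloid markers 5 were in the table, and they summed to 0.53 and 0.268 CPM in the Batf3-/- libraries, against 0.173 and 0.354 CPM in the WT libraries, with Lyz2 and Csf3r at 0 in all 4. B cell markers summed to 10.4 and 12.2 CPM in the Batf3-/- libraries, against 12.9 and 9.93 CPM in the WT libraries, with Ms4a1 at 0 in all 4. The NK cell genes Ncr1 and Klrb1c were also at 0 in all 4. With the third listed NK gene, Klrk1, they summed to 0.064 and 0.064 CPM in the Batf3-/- libraries, against 0.042 and 0.073 CPM in the WT libraries. CD8 T cell markers summed to 7.59 and 7.23 CPM in the Batf3-/- libraries, against 8.92 and 8.54 CPM in the WT libraries. Over all tested genes the log2 CPM of WT replicate 1 correlated with the other libraries at 0.972 to 0.976, and those with each other at 0.981 to 0.983.

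Library sizes were scaled by TMM factors. Of the scaled size the 33 genes together took 0.877% and 0.969% in Batf3-/- replicates 1 and 2, and 0.862% and 0.972% in WT replicates 1 and 2. Levels between genes are compared as CPM per kb of the longest annotated transcript. On that scale Scd2, a stearoyl-CoA desaturase that makes monounsaturated fatty acids, stood at the top with 498 ± 92.1 CPM per kb in Batf3-/- cells and 479 ± 75.9 CPM per kb in WT cells (mean ± SD, n = 2 each, as for all such values). Fdps, farnesyl diphosphate synthase of the mevalonate pathway, was the next with 250 ± 1.39 CPM per kb in Batf3-/- cells and 255 ± 27.6 CPM per kb in WT cells. Acly, ATP citrate lyase, which supplies cytosolic acetyl-CoA to both pathways, followed with 142 ± 10.5 CPM per kb in Batf3-/- cells and 136 ± 27.4 CPM per kb in WT cells. Between Scd2 and Fdps and between Fdps and Acly the levels of single libraries did not overlap in either genotype. In Batf3-/- cells Acly lay above the genes that follow, but in WT replicate 1, at 116 CPM per kb, it lay below Idi1 at 146 CPM per kb in the same library. The next genes were too close to order: Idi1, Hmgcs1, Cyp51, Msmo1, Acat2, Scd1, Srebf2 and Insig1 all lay between 89.7 and 119 CPM per kb in Batf3-/- cells and between 91.1 and 129 CPM per kb in WT cells on average.

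The lower end of the order was held by the efflux transporters. Abca1 had 1.54 ± 0.933 CPM per kb in Batf3-/- cells and 1.75 ± 0.265 CPM per kb in WT cells. Abcg1 had 3.33 ± 0.790 CPM per kb in Batf3-/- cells and 4.10 ± 0.120 CPM per kb in WT cells. Acaca, the acetyl-CoA carboxylase that commits carbon to fatty acids, stood next with 10.6 ± 2.00 CPM per kb in Batf3-/- cells and 11.6 ± 3.26 CPM per kb in WT cells. Within the sterol pathway the kinase Mvk was the least abundant enzyme per length, at 15.3 ± 0.592 CPM per kb in Batf3-/- cells and 13.5 ± 2.35 CPM per kb in WT cells.

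**Figure D1:**
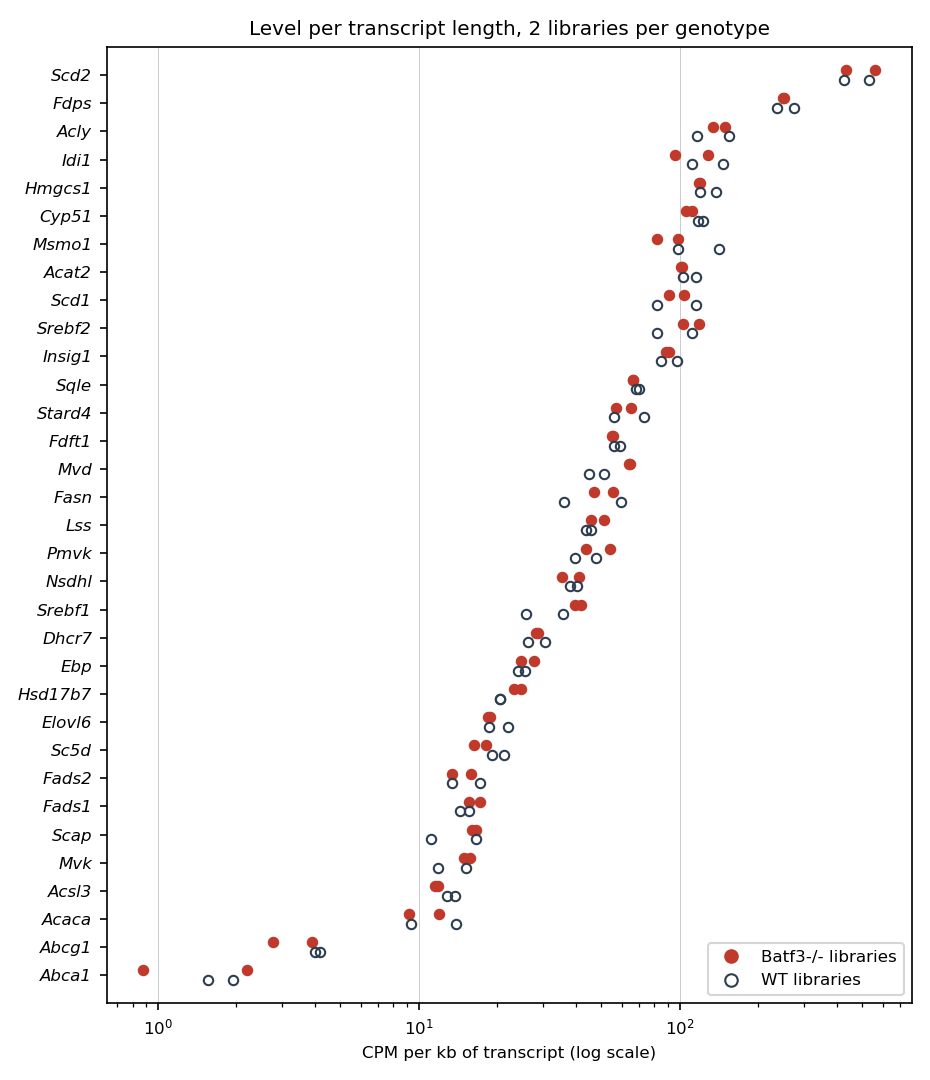
Level of each of the 33 genes per transcript length (CPM per kb, log axis), 1 point per library, with Batf3-/- libraries as filled red points above and WT libraries as open points below in each row, ordered by the WT mean. Scd2 sits alone at the top at 498 CPM per kb in Batf3-/- cells and 479 CPM per kb in WT cells, and Abca1 and Abcg1 sit apart at the bottom in both genotypes.

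Promoter windows were read to show what letters these genes carry upstream of their starts, although no binding was measured in these cells. RefSeq windows on GRCm38.p6, 250 bases before to 50 after the start, were held for 25 of the 33 genes, in 31 windows because 4 genes have more than 1. Searched on both strands, the core of the sterol regulatory element, TCACCCCA, was in 2 of the 31 windows (6.45%) and in 1.56% of all 32851 windows. The CCAAT box, CCAAT, was in 20 of the 31 (64.5%) and in 37.4% of all windows. A palindromic E-box, CACGTG, was in 7 (22.6%) and in 7.15% of all windows. The AP-1 motif TGANTCA, which BATF-family dimers can bind, was in 2 (6.45%) and in 7.81% of all windows. The 2 genes with an AP-1 match were Msmo1 and Dhcr7, with log2 fold changes of -0.41 and 0.01 in that order. Windows of 1 gene can overlap each other, and a match of letters is a description only. The 2 genes with the sterol core are shown first, then Msmo1, which holds an AP-1 match and had the lowest log2 fold change of the 33 genes, Mvd, which had the highest, and Hsd17b7, the sterol enzyme gene on the chromosome of Batf3. Each is printed 5′ to 3′ on the gene's own strand, from within the bases before the RefSeq start, with the matches in capitals. The GENCODE spans used for gene positions can differ. The GENCODE span of Msmo1 reaches 64733792, so its whole stretch, with the AP-1 match, lies inside that span. That of Hsd17b7 reaches 169969241, so its stretch lies partly inside.
Hmgcs1 (chr13:119690104-119690320, plus strand; sterol core and CCAAT boxes): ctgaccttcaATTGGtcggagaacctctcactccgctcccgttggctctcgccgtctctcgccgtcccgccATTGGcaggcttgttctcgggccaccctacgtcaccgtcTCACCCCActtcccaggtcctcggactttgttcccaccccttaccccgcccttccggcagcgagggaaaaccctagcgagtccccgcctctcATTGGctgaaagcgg
Srebf2 (chr15:82147097-82147148, plus strand; sterol core and CCAAT box): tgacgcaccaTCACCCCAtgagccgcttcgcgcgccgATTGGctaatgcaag
Msmo1 (chr8:64733619-64733748, minus strand; AP-1 match and CCAAT boxes): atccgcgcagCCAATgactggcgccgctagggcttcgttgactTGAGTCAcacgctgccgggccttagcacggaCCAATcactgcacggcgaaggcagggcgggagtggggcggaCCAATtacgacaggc
Mvd (chr8:122443435-122443492, minus strand; CCAAT boxes): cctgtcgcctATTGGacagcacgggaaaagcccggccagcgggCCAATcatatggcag
Hsd17b7 (chr1:169969206-169969380, minus strand; E-box and CCAAT boxes): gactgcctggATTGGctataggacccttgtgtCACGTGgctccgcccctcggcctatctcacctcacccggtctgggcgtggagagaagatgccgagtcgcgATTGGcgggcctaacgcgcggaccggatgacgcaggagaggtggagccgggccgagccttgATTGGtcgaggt

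In Batf3-/- cells none of the 33 genes differed from WT past the threshold of 0.05 on the adjusted p (edgeR quasi-likelihood test over 12135 genes, two-sided), and the smallest adjusted p was 0.958. Of all tested genes 0.132% passed. At an unadjusted p under 0.05 there was 1 of the 33 genes, Mvd, against 4.8% of all tested genes, and DESeq2 likewise gave 0 past the adjusted threshold and 1 at an unadjusted p under 0.05. The log2 fold change, Batf3-/- minus WT, was above 0 for 14 and below 0 for 19 of the 33 genes, with a median of -0.03, and was above 0 for 48.4% of all tested genes, whose median was -0.01. The fitted values ran from -0.41 for Msmo1 to 0.42 for Mvd. Bulk RNA cannot tell fewer cells that express a gene from less RNA per cell.

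A p-value that misses the threshold does not show equal levels, so the 95% intervals of the log2 fold changes are given too. The fit drew each gene's spread towards that of the tested genes, with median prior degrees of freedom of 16.8. The intervals rest on that moderated spread between these libraries, which may be technical, and leave out the GC trend described below. They therefore do not bound a difference between mice. The 33 genes were not matched by level to the tested genes set beside them. For 32 of the 33 genes the interval lay inside a 2-fold difference in either direction, against 79.7% of all tested genes. Abca1 was the exception, with an interval from -1.05 to 0.63. Inside the narrower bound of 1.5-fold lay 20 of the 33 intervals, against 35.2% of all tested genes. The genotype difference was smaller than the difference between the WT libraries for 24 of the 33 genes, against 66.6% of all tested genes.

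**Figure D2:**
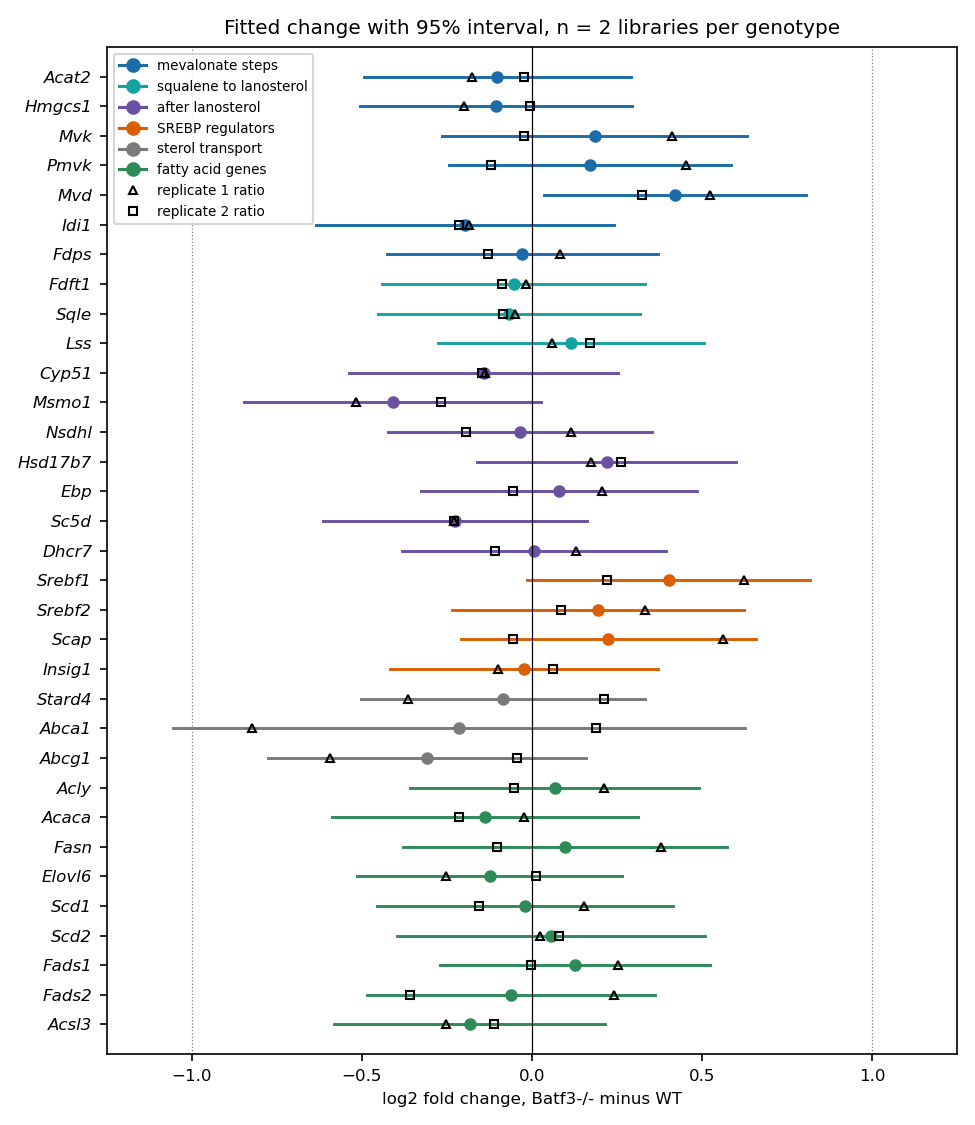
Fitted log2 fold change of each gene, Batf3-/- minus WT (filled circles), with its 95% interval (lines), coloured by role, and the ratio within replicate number 1 (triangles) and 2 (squares), with dotted lines at a 2-fold difference. Only the interval of Mvd, 0.03 to 0.81, excludes 0, and only that of Abca1 crosses a dotted line.

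Libraries of the genotypes were separated for 11 genes. Both Batf3-/- libraries lay above both WT libraries for Mvd, Lss, Hsd17b7 and Srebf1, which is 4 of the 33 genes, against 18.2% of all tested genes. They lay below both WT libraries for Acat2, Fdft1, Sqle, Cyp51, Sc5d, Abcg1 and Acsl3, which is 7 of the 33, against 15.6% of all tested genes. Within replicate numbers the log2 ratio had the same sign in both for 17 of the 33 genes, against 55.1% of all tested genes. These shares were near those of all tested genes.

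Among the mevalonate enzymes, which build isoprenoid units from acetyl-CoA, 3 of 7 log2 fold changes were above 0 and none passed. Mvd (ENSMUSG00000006517.4, chromosome 8, 122433601 to 122443422), the decarboxylase that makes isopentenyl diphosphate, had 113 and 112 CPM in Batf3-/- replicates 1 and 2, against 78.7 and 89.9 CPM in WT replicates 1 and 2. Both Batf3-/- libraries were above both WT libraries. Its level was 1.34-fold that of WT (log2 fold change 0.42 with an SE of 0.18; adjusted p = 0.958 in edgeR, unadjusted p = 0.034), with log2 ratios of 0.52 and 0.32 within replicates 1 and 2. Mvd has a GC-rich transcript at 59.3% GC, and its log2 fold change was 0.13 with the GC correction described below. The gene overlaps Gm20388 on the opposite strand, and the sources used here do not say whether counting used strand, so the division of reads between that pair is uncertain. The estimated counts of Mvd were whole numbers in all 4 libraries.

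Idi1, the isomerase that interconverts the isoprenoid building blocks, had 390 and 292 CPM in the Batf3-/- libraries, against 443 and 339 CPM in the WT libraries. The groups overlapped, and in both genotypes replicate 1 was the higher. Its log2 fold change was -0.20 (SE 0.21), and it hung on single libraries. It was -0.42 without Batf3-/- replicate 1 and -0.38 without WT replicate 2, but 0.0003 without Batf3-/- replicate 2 and -0.0014 without WT replicate 1, and -0.01 with the GC correction. Mvk, mevalonate kinase, had 26.1 and 24.7 CPM in the Batf3-/- libraries, against 19.6 and 25.1 CPM in the WT libraries. Only WT replicate 1 was low, and the log2 fold change of 0.18 (SE 0.21) was 0.01 without that library. The same library was the lowest for Pmvk, phosphomevalonate kinase, with 64.8 and 52.4 CPM in Batf3-/- cells, against 47.3 and 56.97 CPM in WT cells. It was the highest for Acat2, the thiolase that joins acetyl-CoA units, which had 231 and 227 CPM in Batf3-/- cells, against 260 and 231 CPM in WT cells. The estimated counts of Acat2 were fractional in all 4 libraries. Hmgcs1, HMG-CoA synthase, had 416 and 412 CPM in Batf3-/- cells, against 477 and 413 CPM in WT cells, again with WT replicate 1 above the other 3 libraries. Fdps had 344 and 347 CPM in Batf3-/- cells, which lay between the WT values of 325 and 379 CPM.

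The enzymes that turn farnesyl diphosphate into the first sterol varied little among the 4 libraries. Sqle, squalene epoxidase, had 182 CPM in both Batf3-/- libraries, against 188 and 193 CPM in the WT libraries (log2 fold change -0.07, SE 0.18). Fdft1, squalene synthase, had 204 and 205 CPM in Batf3-/- cells, against 206 and 218 CPM in WT cells (log2 fold change -0.05, SE 0.19). The Batf3-/- values of both genes lay just below WT without passing the test, with 95% intervals of the log2 fold change from -0.45 to 0.32 for Sqle and from -0.44 to 0.33 for Fdft1. Lss, lanosterol synthase, had 213 and 239 CPM in Batf3-/- cells, against 204 and 213 CPM in WT cells (log2 fold change 0.12, SE 0.19). Its separation rested on Batf3-/- replicate 2, since replicate 1 lay within rounding of WT replicate 2. Fdft1 overlaps Ctsb on the opposite strand and carried fractional counts in all 4 libraries, as arise where reads are shared between loci.

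After lanosterol, 7 enzymes trim and rearrange the sterol towards cholesterol, and 3 of their 7 log2 fold changes were above 0. Msmo1 (ENSMUSG00000031604.10, chromosome 8, 64718139 to 64733792), the methylsterol monooxygenase, had 202 and 167 CPM in Batf3-/- replicates 1 and 2, against 289 and 201 CPM in WT replicates 1 and 2. WT replicate 1 was far above the other 3 libraries, and Batf3-/- replicate 1 and WT replicate 2 were level. The log2 fold change was -0.41 with an SE of 0.21 (adjusted p = 0.958 in edgeR, unadjusted p = 0.064). Leaving out WT replicate 1 gave -0.14. Leaving out WT replicate 2 gave -0.65, with WT replicate 1 as the only WT library, assumed to vary like the Batf3-/- libraries.

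Sc5d, the sterol desaturase, had 86.9 and 77.8 CPM in Batf3-/- cells, against 102 and 91.1 CPM in WT cells. Both Batf3-/- libraries were lower, with a log2 ratio of -0.23 within each replicate number (log2 fold change -0.23, SE 0.18). Cyp51, the lanosterol demethylase, was similar with 439 and 416 CPM in Batf3-/- cells, against 483 and 460 CPM in WT cells, and log2 ratios of -0.14 and -0.15 within replicates 1 and 2. The log2 fold changes were nearer 0 with the GC correction, at -0.07 for Sc5d and -0.04 for Cyp51. Cyp51 overlaps Akap9 on the opposite strand and had fractional counts in all 4 libraries. Hsd17b7 (ENSMUSG00000026675.12, chromosome 1, 169949535 to 169969241), a sterol ketoreductase gene that lies 21.1 Mb from Batf3, had 107 and 113 CPM in Batf3-/- cells, against 94.4 and 94.5 CPM in WT cells. The WT libraries were nearly equal and both Batf3-/- libraries lay above them (log2 fold change 0.22, SE 0.18, 0.18 within replicate 1 and 0.26 within replicate 2). With the GC correction its log2 fold change was 0.36, the smallest unadjusted p of the 33 genes in that fit, and its adjusted p was 1 (edgeR). Nsdhl, Ebp and Dhcr7, a dehydrogenase, an isomerase and the reductase of the last step, had log2 fold changes of -0.04, 0.08 and 0.01, and their groups overlapped. Dhcr7, for example, had 80.6 and 79.3 CPM in Batf3-/- cells, against 73.7 and 85.5 CPM in WT cells.

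Of the 4 regulators, Srebf1, Srebf2 and Scap had log2 fold changes above 0 and Insig1 was near 0. Srebf1 (ENSMUSG00000020538.15, chromosome 11, 60199089 to 60222581) had 171 and 180 CPM in Batf3-/- replicates 1 and 2, against 111 and 154 CPM in WT replicates 1 and 2. Both Batf3-/- libraries lay above WT, and WT replicate 1 was the lowest by a wide margin. The log2 fold change was 0.40 with an SE of 0.20 (adjusted p = 0.958 in edgeR, unadjusted p = 0.057), and the log2 ratios were 0.62 and 0.22 within replicates 1 and 2. Leaving out WT replicate 1 gave 0.17, and leaving out WT replicate 2 gave 0.66, each with 1 WT library left. With the GC correction it was 0.16. Srebf1 overlaps Rai1 on the opposite strand and had fractional counts in all 4 libraries.

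Scap had 69.7 and 67.7 CPM in Batf3-/- cells, against 47.2 and 70.3 CPM in WT cells. WT replicate 1 alone was low, and the log2 fold change of 0.22 (SE 0.21) was -0.04 without it. Srebf2 had 523 and 600 CPM in Batf3-/- cells, against 415 and 565 CPM in WT cells, and its log2 fold change of 0.20 (SE 0.21) was -0.02 without WT replicate 1. Insig1, itself a target of SREBPs that feeds back on them, had 245 and 238 CPM in Batf3-/- cells, between the WT values of 263 and 229 CPM (log2 fold change -0.02, SE 0.19). Thus the 3 regulator genes with GC contents of 57.9% to 59.1% shared a low WT replicate 1, and Insig1 at 48.2% GC did not. With the GC correction the log2 fold changes of Srebf2 and Scap were -0.03 and -0.04.

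The sterol transport genes all had log2 fold changes below 0, and each was uneven within a genotype. Abcg1, a sterol efflux transporter, had 16.2 and 22.7 CPM in Batf3-/- replicates 1 and 2, against 24.4 and 23.4 CPM in WT replicates 1 and 2 (log2 fold change -0.31, SE 0.22). Both Batf3-/- libraries were lower, but by -0.59 on the log2 scale within replicate 1 and -0.04 within replicate 2. Abca1, which loads cholesterol onto apolipoproteins, had 9.03 and 22.6 CPM in Batf3-/- cells, the lowest and the highest of the 4 libraries, against 16.0 and 19.8 CPM in WT cells. Its log2 fold change was -0.21 (SE 0.37), -0.99 without Batf3-/- replicate 2 and 0.33 without Batf3-/- replicate 1. Stard4, a carrier of cholesterol between membranes, had 289 and 331 CPM in Batf3-/- cells, against 372 and 285 CPM in WT cells, with log2 ratios of -0.36 within replicate 1 and 0.21 within replicate 2. The low Abca1 and Abcg1 values thus belonged to Batf3-/- replicate 1 and not to both knockout libraries.

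Among the 9 genes of fatty acid synthesis, 4 log2 fold changes were above 0, and they ran only from -0.18 to 0.13. Acsl3, an acyl-CoA synthetase, had 45.6 and 46.9 CPM in Batf3-/- cells, against 54.4 and 50.6 CPM in WT cells (log2 fold change -0.18, SE 0.19). Its libraries were separated, and it shares a span and a strand with Utp14b and had fractional counts, so its level is uncertain. Its GC-corrected log2 fold change was -0.03. Elovl6, an elongase of saturated chains, had 109 and 112 CPM in Batf3-/- cells, against 130 and 111 CPM in WT cells (log2 fold change -0.12, SE 0.19), with WT replicate 1 high. Fads1, a desaturase of polyunsaturated fatty acids, had 59.2 and 53.9 CPM in Batf3-/- cells, against 49.6 and 54.1 CPM in WT cells (log2 fold change 0.13, SE 0.19). Fads2, its partner desaturase, had 50.04 and 42.1 CPM in Batf3-/- cells, against 42.3 and 54.0 CPM in WT cells, so that its log2 ratios ran opposite ways, 0.24 within replicate 1 and -0.36 within replicate 2.

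The core lipogenic enzymes varied more between replicates than between genotypes. Fasn, fatty acid synthase, had 470 and 558 CPM in Batf3-/- replicates 1 and 2, against 361 and 598 CPM in WT replicates 1 and 2. Both the lowest and the highest value were WT, and the log2 ratios were 0.38 and -0.10 within replicates 1 and 2. Acly had 596 and 661 CPM in Batf3-/- cells, inside the WT range of 514 to 686 CPM. Acaca had 87.2 and 114 CPM in Batf3-/- cells, against 88.6 and 132 CPM in WT cells, and in both genotypes replicate 2 was the higher. The summed level of the 9 genes was 4215 and 5158 CPM in Batf3-/- replicates 1 and 2, and 3955 and 5148 CPM in WT replicates 1 and 2, so that replicate 2 was the higher in both. The 17 sterol enzymes did not share that split, with sums of 3235 and 3067 CPM in Batf3-/- replicates 1 and 2, and 3416 and 3223 CPM in WT replicates 1 and 2.

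Scd2 alone made up most of the fatty acid sum, with 2360 and 3070 CPM in Batf3-/- cells, against 2319 and 2904 CPM in WT cells (log2 fold change 0.06, SE 0.22). Scd1, its close paralog on chromosome 19 and the main isoform of liver, had 439 and 501 CPM in Batf3-/- cells, against 395 and 557 CPM in WT cells (log2 fold change -0.02, SE 0.21). Scd2 counts were 5.38 and 6.13 times those of Scd1 in Batf3-/- replicates 1 and 2, and 5.87 and 5.21 times in WT replicates 1 and 2, as counts and not per length. The estimated counts of both were fractional, and with Scd3 and Scd4 added they came to whole numbers within 0.01 in each library, which were 88932 and 55230 in Batf3-/- replicates 1 and 2, and 63327 and 94989 in WT replicates 1 and 2. Sums that are whole where the parts are fractional are what division of shared reads within the family leaves. Scd3 and Scd4 had at most 13.2 counts in any library.

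**Figure D3:**
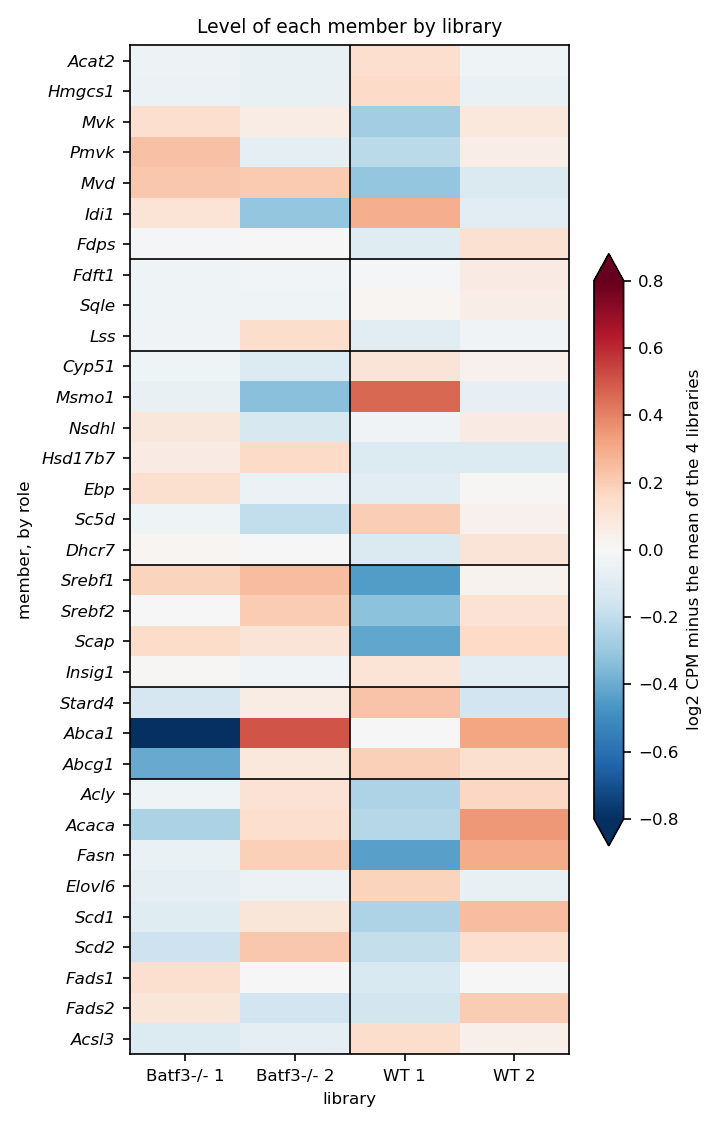
Level of each gene in each library as log2 CPM minus the mean of the 4 libraries, with red above and blue below the mean, rows grouped by role and the Batf3-/- libraries left of the line. The WT replicate 1 column holds 16 of the 33 lowest and 11 of the 33 highest values, and Abca1 in Batf3-/- replicate 1 is the darkest blue field.

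Across the members the library that stood apart was WT replicate 1. It was the lowest of the 4 libraries for 16 of the 33 genes, against 32.4% of all tested genes, and the highest for 11 of the 33, against 33.3% of all tested genes. Across the 33 genes the log2 ratio of WT replicate 1 to WT replicate 2 followed the GC content of the longest transcript with a Spearman rho of -0.69, against -0.39 across 12086 tested genes with a known transcript. Between Batf3-/- replicates 1 and 2 the rho was -0.07 over the 33 genes. The genotype log2 fold change followed GC content with a rho of 0.69 across the 33 genes and 0.59 across the tested genes. These are descriptions across genes, which share the same 4 libraries and are not independent. How much of any single difference belongs to this trend and how much to genotype was not tested.

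**Figure D4:**
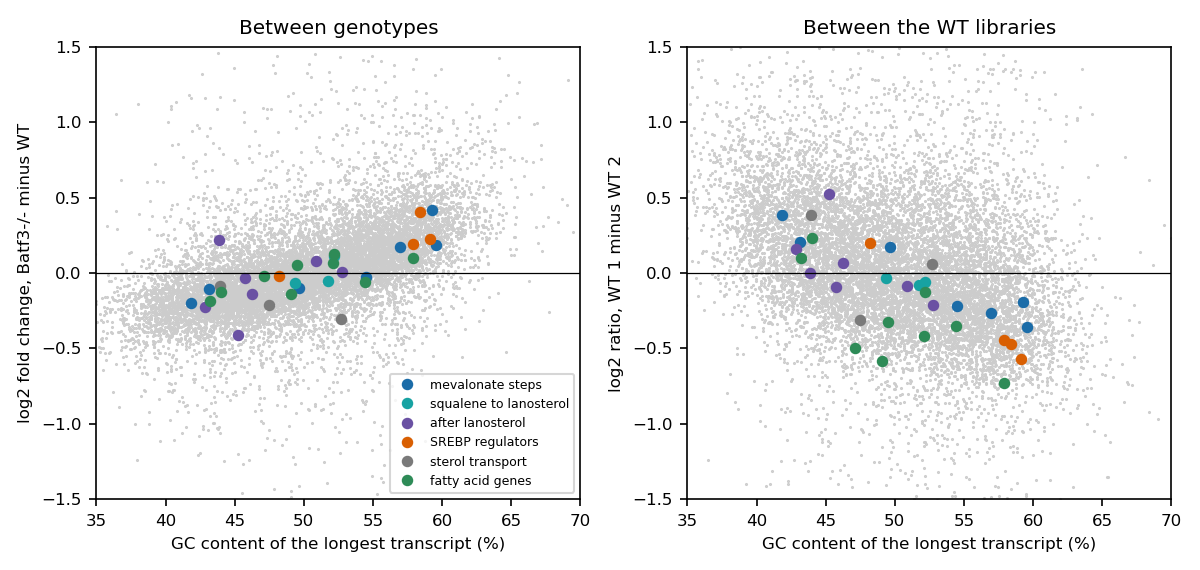
GC content of the longest transcript (%) against the log2 fold change, Batf3-/- minus WT (left), and against the log2 ratio of WT replicate 1 to WT replicate 2 (right), with the 33 genes coloured by role and all tested genes in grey, axes limited to the range shown. The coloured points climb with GC on the left (rho 0.69) and descend on the right (rho -0.69), and Hsd17b7 at 43.9% GC and 0.22 lies above the other low-GC members on the left.

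With offsets taken from each library's smooth trend on GC content, 12 of the 33 genes had a log2 fold change of the other sign. None of the 33 passed. The largest positive value was then 0.36 for Hsd17b7 and the lowest -0.36 for Abcg1, while Msmo1 stood at -0.28. The medians of the 33 genes were both -0.03 with and without the correction.

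Of 70 other genes of lipid metabolism chosen by list, 63 were tested, 32 with log2 fold changes above 0 and 31 below, and none passed in either direction in edgeR, while 4 of the 63 had an unadjusted p under 0.05, a share near the 4.8% of all tested genes. Of the 6 tested genes of LXR and its targets, 3 were among those 4, and 4 of the 6 were above 0 and 2 below. Of the 2 below, Mylip, an LXR target named here after its value was seen, had a log2 fold change of -0.40 (SE 0.36). Nr1h2, which encodes the broadly expressed LXR beta, had 86.8 and 83.0 CPM in Batf3-/- cells, against 50.4 and 63.7 CPM in WT cells (log2 fold change 0.57, adjusted p = 0.708, edgeR). Rxrb, a retinoid X receptor that pairs with LXR, had 64.0 and 61.6 CPM in Batf3-/- cells, against 35.8 and 45.8 CPM in WT cells (log2 fold change 0.62, adjusted p = 0.646, edgeR). Both were separated between genotypes, and with the GC correction their log2 fold changes were 0.24 and 0.25. With 1 WT library left the log2 fold changes depended on which one. Without WT replicate 2 they were 0.75 for Nr1h2 and 0.81 for Rxrb, and without WT replicate 1 they were 0.40 and 0.44. Apoe, a lipoprotein gene and LXR target, had 4.91 and 3.17 CPM in Batf3-/- cells, against 2.19 and 2.33 CPM in WT cells (log2 fold change 0.88, adjusted p = 0.881, edgeR). Its log2 fold change was 0.49 without Batf3-/- replicate 1, 1.12 without Batf3-/- replicate 2 and 0.58 with the GC correction. The efflux transporters that LXR induces, Abca1 and Abcg1, had log2 fold changes on the other side of 0, as given above.

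The remaining gene, Soat2, an enzyme that stores cholesterol as esters, had 12.3 and 8.86 CPM in Batf3-/- cells, against 6.90 and 5.43 CPM in WT cells (log2 fold change 0.80, adjusted p = 0.724, edgeR). Its log2 fold change was 0.52 without Batf3-/- replicate 1 and 1.00 without Batf3-/- replicate 2. It was 0.97 without WT replicate 1, 0.63 without WT replicate 2 and 0.66 with the GC correction. The other 7 tested genes of esters and trafficking had an unadjusted p above 0.05. Of 8 other tested sterol synthesis genes, 5 were above 0, with Tm7sf2, a sterol reductase, at a log2 fold change of 0.41 and Ggps1, which makes geranylgeranyl diphosphate, at -0.29. Of 9 tested genes of SREBP processing and sterol uptake, 4 were above 0, with the ubiquitin ligase gene Syvn1 at 0.26. Of 17 other tested fatty acid genes, 8 were above 0, with Mid1ip1, an activator of acetyl-CoA carboxylase, at 0.38 and Acsl1, an acyl-CoA synthetase, at -0.34. None of these had an unadjusted p under 0.05. After GC correction Tm7sf2 stood at 0.22, Ggps1 at -0.07, Syvn1 at 0.05, Mid1ip1 at 0.22 and Acsl1 at -0.30. Without WT replicate 1 Ggps1 stood at -0.07, Syvn1 at 0.07 and Mid1ip1 at 0.16, and without Batf3-/- replicate 1 Tm7sf2 stood at 0.26 and Mid1ip1 at 0.25. Other fits lay further from 0. Without WT replicate 2 Ggps1 stood at -0.48, Syvn1 at 0.47 and Mid1ip1 at 0.63. Without Batf3-/- replicate 2 Tm7sf2 stood at 0.53 and Mid1ip1 at 0.50.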

How the data were processed

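The authors deposited estimated counts per gene, made with STAR 2.5.0 and RSEM 1.2.25 on GRCm38, per the submitters' processing notes. Such expected counts divide reads shared between genes and need not be whole. Libraries were stranded, from polyadenylated RNA, read as 75 bp single ends, per the labels' protocols; the annotation release and whether counting used strand are not stated there. The 92 spike-in entries held 0 counts and were left out. Libraries were grouped by genotype and numbered by their titles.

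The count model was edgeR 4.0.16 under R 4.3.3, on counts rounded to whole numbers (filterByExpr, minimum count 10 and minimum total 15; TMM factors 0.982 to 1.02; robust glmQLFit with legacy=FALSE and glmQLFTest, genotype only, Benjamini-Hochberg over 12135 genes). CPM are TMM-normalized except in the sums of cell type markers, which use library totals. Ratios within replicate numbers use a prior count of 0.5. Library totals were 15624874 to 31098059, and standard errors of the log2 fold changes were 0.18 to 0.37 for the 33 genes. Within a genotype the chi-square over its degrees of freedom came to 24.0 for Batf3-/- and 66.3 for WT, so no libraries were merged.

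Positions, lengths and GC came from GENCODE M21 on GRCm38, for the longest transcript of each gene outside retained introns and nonsense-mediated decay. The GC correction used lowess trends (span 0.3). Alternatives were DESeq2 1.42.0, its size factors, upper-quartile factors, other filters, each library left out, a replicate block and the GC correction. Scripts were tested on simulated data.

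The genes, lists and tests were chosen with earlier results of these data known. In each role the 3 genes with the smallest p, and any under 0.05, were given in full, others by level; of the other lists, genes under 0.05 or up to 2 with the smallest p. The Scd family sums and the promoter stretches were chosen after values were seen.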

Additional observations from a re-analysis of the deposited data

How the results depend on the processing

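None of the 33 genes passed in either direction under any of the settings tried except without WT replicate 2. In that setting, with 1 WT library left, more of all tested genes passed than in any other. Over the settings that left out 1 library the count was 0 to 1 higher (Srebf1) and 0 to 1 lower (Msmo1), and the median log2 fold change of the 33 genes was -0.091 to 0.118, against -0.03 with all libraries. Over all genes, 10 were higher and 6 lower. DESeq2 gave 21 higher, the replicate block 81 higher and 31 lower, the GC correction 6 higher, and the block with the GC correction 55 higher and 33 lower. Leaving out 1 library gave 11 to 301 higher and 7 to 252 lower. The replicate block changed no call among the 33 genes (log2 fold changes of 0.42 for Srebf1 and 0.42 for Mvd, adjusted p = 0.42 in edgeR for each). The labels give only a shared number and prefix, and the deviations of same-numbered libraries correlated at 0.108. In that fit the median prior degrees of freedom were infinite, against 16.8 without the block. The 33 genes kept their sign under DESeq2, its size factors, both filters and the block. With upper-quartile factors Fdps, Insig1 and Scd1 turned to 0.0012, 0.0065 and 0.0083. With the GC correction 12 genes turned: Pmvk -0.022, Srebf2 -0.028, Scap -0.040, Dhcr7 -0.046, Mvk -0.108, Fasn -0.116, Elovl6 0.019, Insig1 0.037, Hmgcs1 0.051, Scd1 0.053, Stard4 0.065 and Nsdhl 0.069. With the block as well, the same 12 stood at -0.031, -0.026, -0.029, -0.044, -0.108, -0.096, 0.020, 0.039, 0.051, 0.077, 0.065 and 0.069 in that order. Leaving out 1 library turned 16 genes, with ranges of -0.99 to 0.33 (Abca1), -0.41 to 0.18 (Acaca), -0.14 to 0.29 (Acly), -0.11 to 0.12 (Dhcr7), -0.013 to 0.165 (Ebp), -0.24 to 0.13 (Fads2), -0.23 to 0.51 (Fasn), -0.14 to 0.087 (Fdps), -0.42 to 0.0003 (Idi1), -0.12 to 0.071 (Insig1), -0.15 to 0.070 (Nsdhl), -0.043 to 0.54 (Scap), -0.26 to 0.25 (Scd1), -0.15 to 0.23 (Scd2), -0.021 to 0.43 (Srebf2) and -0.26 to 0.11 (Stard4). The cause of these turns was not tested. In total 13 of the 33 genes kept their sign in every setting run. Turns of sign were not counted over all tested genes, so these counts have no background share.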

Other observations

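Genes that use fatty acids rather than make them showed no difference past the threshold either. Of 8 tested genes of mitochondrial fatty acid oxidation, 4 had log2 fold changes above 0 and the median was -0.04. Acadvl, a dehydrogenase of very long chains, had 112 and 122 CPM in Batf3-/- cells, against 80.7 and 99.9 CPM in WT cells (log2 fold change 0.37, adjusted p = 0.958, edgeR). Hadhb, a subunit of the trifunctional protein, had 83.9 and 83.5 CPM in Batf3-/- cells, against 107 and 85.9 CPM in WT cells (log2 fold change -0.21). Without WT replicate 1 Acadvl stood at 0.22 and Hadhb at -0.05, and without WT replicate 2 they stood at 0.54 and -0.36. With the GC correction Acadvl stood at 0.29 and Hadhb at -0.09.

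Of 7 tested genes of glycerolipid synthesis, 4 were above 0 and the median was 0.24. Dgat1, which makes triglycerides, had 53.5 and 64.7 CPM in Batf3-/- cells, against 49.7 and 41.1 CPM in WT cells (log2 fold change 0.38, adjusted p = 0.958, edgeR). Agpat2, an acyltransferase of phosphatidic acid synthesis, had 13.4 and 11.3 CPM in Batf3-/- cells, against 8.27 and 10.02 CPM in WT cells (log2 fold change 0.43). For Dgat1 and Agpat2 both Batf3-/- libraries lay above both WT libraries, as for 18.2% of all tested genes. With the GC correction their log2 fold changes were 0.19 and 0.20. Dgat1 stood at 0.24 without Batf3-/- replicate 2 and 0.25 without WT replicate 2. It stood at 0.51 without Batf3-/- replicate 1 and 0.51 without WT replicate 1.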
